A study of Homo sapiens with 4 samples.

Results

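The genes described here encode the proteins of the small nuclear ribonucleoproteins (snRNPs) of the spliceosome in G401 cells, with and without knockout of BRD9. Members were chosen by symbol alone. They are the gene models named SNRPA to SNRPG with any ending, SNRNP, SF3A, SF3B, PRPF or LSM with a number, without pseudogenes. Of the 57820 gene models in the tables, 82 symbols matched, 30 of these were pseudogenes, and 52 genes remained. All 52 had enough reads to be tested.

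G401 is an established SMARCB1-deficient line derived from a kidney rhabdoid tumour, grown here in DMEM with FBS. RNA sequencing compared 2 libraries whose genotype is given as BRD9 KO with 2 libraries named LacZ and labelled as controls, each carrying replicate number 1 or 2. BRD9 is a bromodomain subunit of a SWI/SNF chromatin remodelling complex that contains no SMARCB1, and the comparison addresses how transcript levels differ when such cells lose it. BRD9 was deleted with CRISPR-Cas9 according to the study, which names no G401 clone for these libraries, and the share of edited cells is not stated in the labels or methods. The methods of the study speak of biological replicates, but no label says that they were separate cultures, so that each p-value reflects the spread between single libraries, possibly technical only.

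An snRNP is a short nuclear RNA (U1, U2, U4, U5 or U6) wrapped in proteins. Most carry a ring of Sm proteins, while U6 carries a ring of the related Lsm proteins, and each has further proteins of its own. U1 binds the start of an intron and U2 its branch point, and the tri-snRNP of U4, U6 and U5 then joins to form the machine that removes the intron. A minor set with U11 and U12 serves a rare class of introns, and U7, which is not a splicing snRNP, directs the cut at the end of histone transcripts. Nearly all dividing cells need these proteins in quantity.

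Estimated counts summed to between 15053247 and 19559290 per library, with 22985 to 23790 genes above 0. Counts-per-million (CPM) below are scaled by the TMM method of edgeR. BRD9 stood at 29.4 and 26.8 CPM in the BRD9 KO libraries and at 48.2 and 53.8 CPM in the LacZ libraries (log2 fold change -0.86, edgeR adjusted p = 2.84e-09), and a transcript left after editing says nothing of the protein. SMARCB1 was at 0 in all 4 libraries, where a count of 0 still allows up to 0.199 CPM (3 counts in the shallowest library, counting error alone). VIM, a mesenchymal marker, was abundant in all 4 libraries but differed between the groups. It had 1269 and 1276 CPM in BRD9 KO cells, against 1788 and 1797 CPM in LacZ cells (log2 fold change -0.49, edgeR adjusted p = 1.25e-18). The leukocyte marker PTPRC was at 0, and the epithelial marker EPCAM had 3 to 6 counts.

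The snRNP protein genes moved in both directions after BRD9 knockout, and by small amounts. The edgeR quasi-likelihood test called 9 of them higher and 12 lower in BRD9 KO cells (adjusted p under 0.05), and 31 did not pass. The highest log2 fold change was 0.40, for LSM10, and the lowest was -0.56, for PRPF40B. The 21 called genes are 40.4% of the 52, and 38.6% of all 15288 genes tested were called. By direction, 17.3% of the snRNP genes were called higher and 23.1% lower, against 20.5% and 18.1% of all genes tested. The median log2 fold change was -0.01 over the 52 genes and -0.01 over all genes tested. These shares lie near the background, so that the number of calls says nothing particular about snRNP genes, and what follows describes which members moved and by how much. Of the 52 genes, none was called with a difference of 1.5-fold or more, against 6.86% of all genes tested. Only 4 of the 52 were called with a difference of 1.2-fold or more, against 20.5% of all genes tested.

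With DESeq2 as the test, the calls numbered 8 higher and 3 lower, where 15.9% and 10.6% of all its genes were called in each direction. Without any 1 library the number called lower by edgeR ran from 5 to 9, the fewest without LacZ replicate 2, with 6 without BRD9 KO replicate 1 and 7 without LacZ replicate 1. Of the 21 called genes, 10 passed without any 1 of the 4 libraries: LSM10, SF3B4, SNRPB2, SF3A3, PRPF4, LSM12 and SF3A1 among those that rose, and PRPF40B, SNRPA and SNRNP200 among those that fell. Only PRPF40B passed when edgeR tested for a difference beyond 1.2-fold. Over all 14 alternatives the highest adjusted p of a called gene was 1 for 16 of the 21, reached in that stricter test, and the others were SF3B4 (0.918), LSM11 (0.518), SNRPA (0.0882), LSM10 (0.0788) and PRPF40B (0.0219). With limma on log2(TPM + 1), 7 of the 21 passed: SF3B4, LSM10 and SF3A3 among the higher, and PRPF40B, SNRPA, SNRPD2 and LSM5 among the lower. Genes not passing there included SNRPB2 (adjusted p = 0.0523), LSM12 (0.067), SNRNP200 (0.0825), PRPF3 (0.102) and PRPF4 (0.138). With no filter on low counts LSM3 (0.0521), LSM11 (0.0701), SNRNP27 (0.0893) and LSM4 (0.158) did not pass. The lowest adjusted p over all alternatives lay between 9.94e-14 for SNRPA and 0.0316 for LSM11. In 35 of the 52 genes the CPM values of the groups did not overlap, 17 with BRD9 KO above and 18 with BRD9 KO below. That holds for 68.6% of all genes tested, 34.1% above and 34.5% below.

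**Figure D1:**
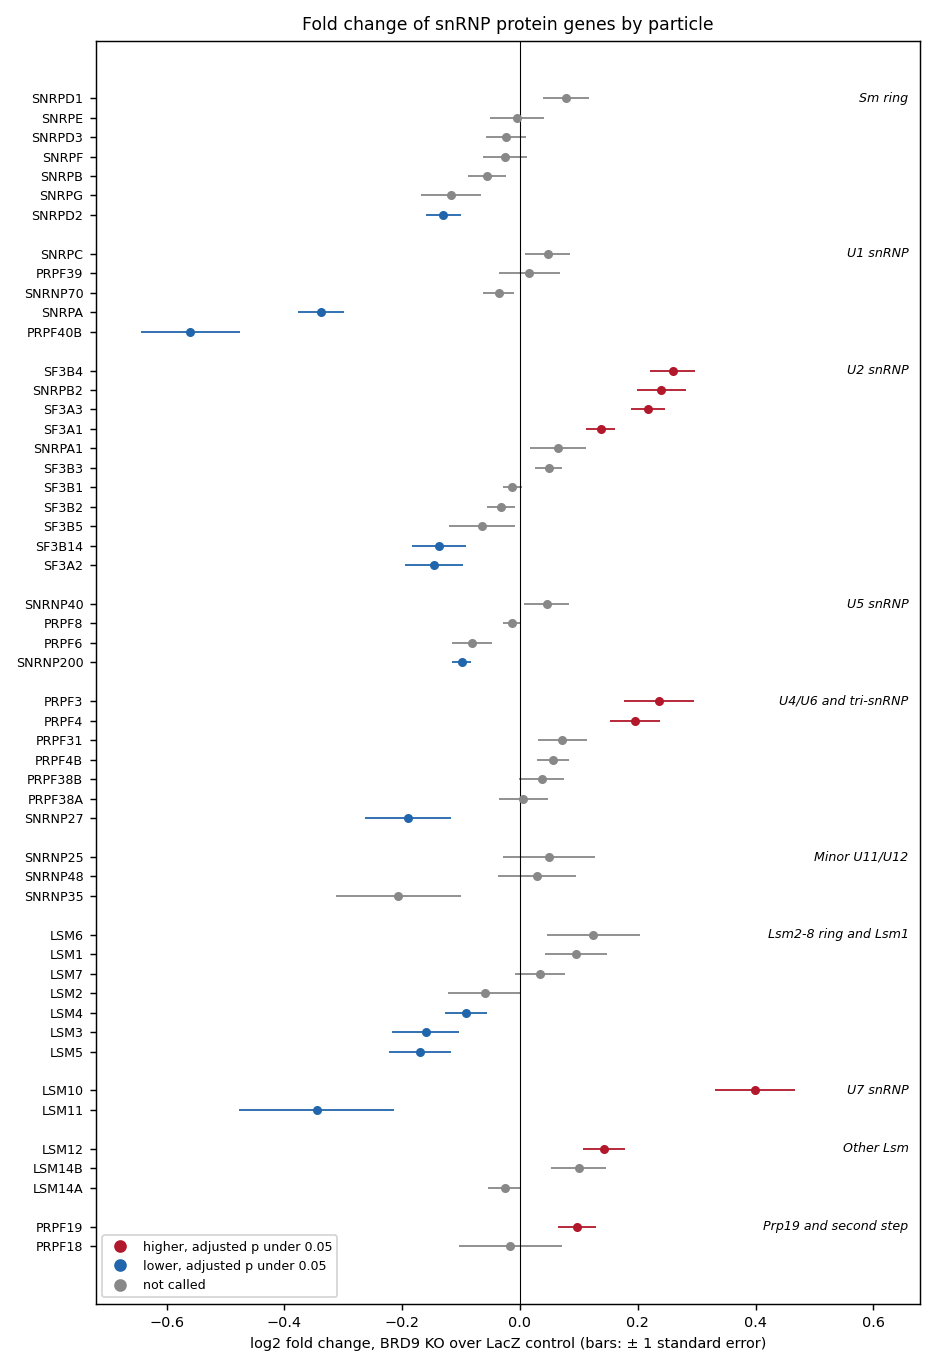
Log2 fold change of 51 of the 52 snRNP protein genes, BRD9 KO over LacZ control, sorted within each particle, with bars of ± 1 standard error. Red points are the 9 genes called higher, blue points 11 of the 12 called lower and grey points the 31 not called. All values lie between -0.56 for PRPF40B and 0.40 for LSM10.

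Promoter sequences are shown first, for some of the called genes, because short sequence elements recur among the members. RefSeq promoters (GRCh38.p14, from 250 bases before the transcription start to 50 after it) were matched for 42 of the 52 genes. The letters CCGGAAG, the core bound by ETS family factors, or their reverse complement CTTCCGG, stood in 18 of the 42 (42.9%). The same letters stood in 10.7% of all 27305 promoters and in 19.5% of the 10665 promoters of tested genes. They stood in 4 of 8 promoters of genes called higher, in 6 of 11 of genes called lower and in 8 of 23 of genes not called. The YY1 letters AAGATGGC or GCCATCTT stood in 11.9% of the members, 5.49% of tested genes and 3.03% of all promoters, and the NRF1 letters GCGCATGC or GCATGCGC in 4.76%, 5.79% and 3.27%. Both strands were searched, no motif contains another, and a match is a run of letters and not a bound site. No match to any of these letters stood in the promoters of LSM10, PRPF40B, LSM11 and SNRPA, the members with the largest changes. Windows were taken only from called genes that hold the ETS letters. The windows below, 30 bases each and read 5′ to 3′ on the strand of the gene, are from genes that rose (SF3A3, SF3B4, SNRPB2, SF3A1) and genes that fell (SNRPD2, SNRNP200), with the ETS letters in capitals.
SF3A3, chr1:37990073-37990102, minus strand: agtcccggggcaCTTCCGGcactcgcggaa
SF3B4, chr1:149927812-149927841, minus strand: tccgtcttcgccCCGGAAGtggaagtcgtg
SNRPB2, chr20:16729919-16729948, plus strand: gctgccagagacCCGGAAGcatcgatcggc
SF3A1, chr22:30356926-30356955, minus strand: gaggggacggtcCCGGAAGtgcgccagtcg
SNRPD2, chr19:45692362-45692391, minus strand: aggtccatgcccCTTCCGGatgtaggcagg
SNRNP200, chr2:96305566-96305595, minus strand: ctggggcgcgacCCGGAAGcggaagggaac

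The members differed far more from each other in level than any of them differed between groups. In transcripts-per-million (TPM), which divides by transcript length and so allows genes to be compared, SNRPD2 was the highest with a mean of 504 over the 4 libraries. SF3B1 (263 TPM), SNRPG (252 TPM), LSM7 (228 TPM) and PRPF8 (213 TPM) came next. LSM11 was the lowest with a mean of 2.09 TPM, below the next lowest, SNRNP48, at 14.8 TPM. The Sm ring genes lay between 146 and 504 TPM and the U4/U6 and tri-snRNP genes between 35.7 and 68.5 TPM. The proteins of the minor U11/U12 particle were between 14.8 and 37.7 TPM. LSM3 had 17.95 TPM, fewer than its ring partners, but its gene model is 3815 bases long in every library, which lowers its TPM against its CPM of 37.6 to 44.5. Over all 52 genes the TPM summed to 5964 and 5941 in BRD9 KO cells and to 5972 and 6082 in LacZ cells. The BRD9 KO sums differed from each other by less than the LacZ sums did.

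**Figure D2:**
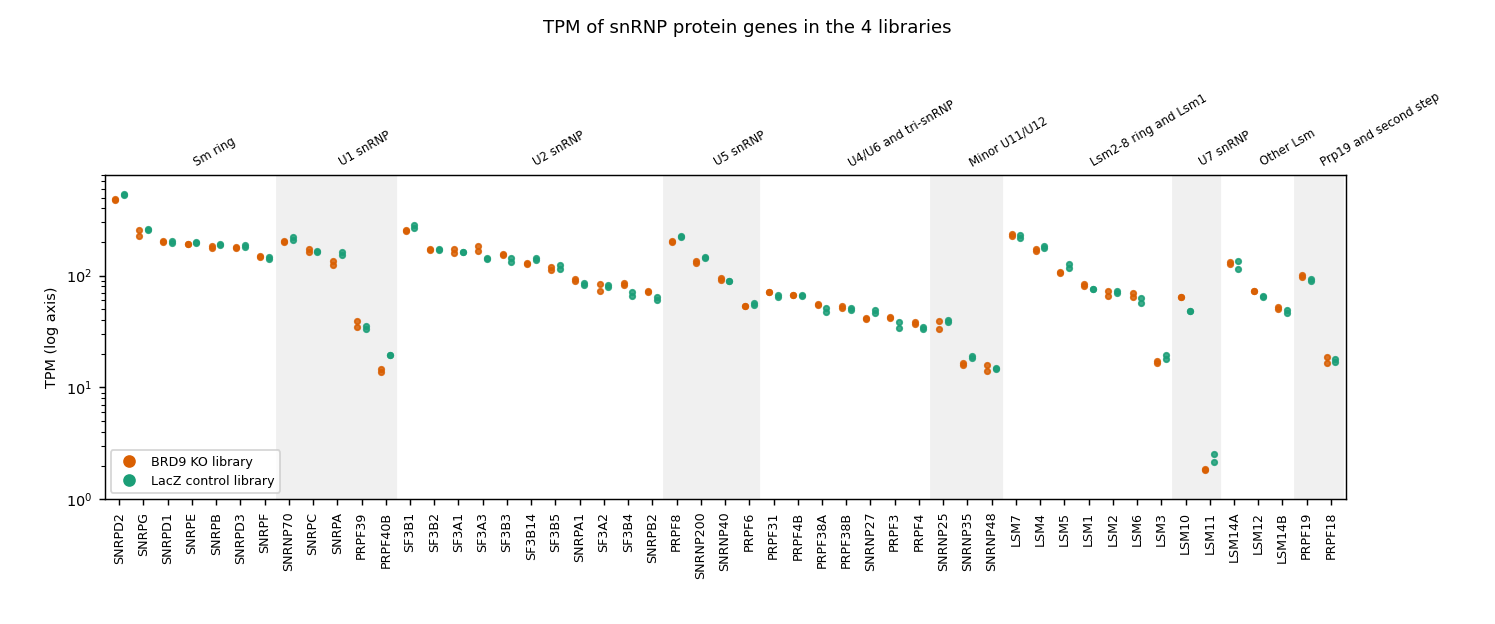
TPM of 51 of the 52 snRNP protein genes on a log axis, grouped by particle and sorted by mean level, with 1 point per library (BRD9 KO left of LacZ control for each gene). SNRPD2 has the highest mean, 504 TPM, and LSM11 the lowest, 2.09 TPM.

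The Sm ring, the heptamer that closes around the Sm site of U1, U2, U4 and U5, held few calls. Of its 7 genes 1 (14.3%) was called lower and none higher at an edgeR adjusted p under 0.05. Among all genes tested 18.1% were called lower and 20.5% higher. The median log2 fold change of the 7 genes was -0.03. SNRPD2, which encodes SmD2, had 130 and 131 CPM in BRD9 KO cells, against 145 and 140 CPM in LacZ cells. Both BRD9 KO libraries were below both LacZ libraries, by 8.64% in the fitted mean (log2 fold change -0.13, standard error 0.03, edgeR adjusted p = 0.00172). The call was lost by little without LacZ replicate 1 (adjusted p = 0.0503) and with DESeq2 (adjusted p = 0.0541). An exon of SNRPD2 overlaps one of QPCTL on the opposite strand. SNRPG, which encodes SmG, had 66.4 and 59.2 CPM in BRD9 KO cells and 70.3 and 66.7 CPM in LacZ cells (log2 fold change -0.12, edgeR adjusted p = 0.0853). BRD9 KO replicate 1 lay close to LacZ replicate 2, and without that BRD9 KO library the edgeR adjusted p was 0.00236. The other Sm genes, SNRPB, SNRPD1, SNRPD3, SNRPE and SNRPF, had log2 fold changes between -0.06 and 0.08 and did not pass.

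Sm genes have many processed copies in the genome, and reads can be split between them. The pseudogene SNRPEP4 held 81.2 to 167 estimated counts per library and SNRPGP10 held 53.9 to 85.9. SNRPN, a paralogue of SNRPB outside the 52 genes, had 144 to 188 estimated counts (log2 fold change 0.09, edgeR adjusted p = 0.603). The posterior standard deviation that RSEM gives for SNRPN reached 25.1% of its count, while for the 52 members it reached 3.14% at most.

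The calls among the U1 proteins were all in the lower direction. Of the 6 genes, 3 (50%) were called lower and none higher, against 18.1% lower and 20.5% higher among all genes tested. The median log2 fold change of the 6 genes was -0.07. SNRPA encodes the A protein of U1, which grips a stem-loop of U1 RNA and also controls polyadenylation of its own transcript (ENSG00000077312.4, GRCh37 chr19:41256542-41271294, plus strand). It had 69.0 and 69.4 CPM in BRD9 KO cells, against 85.5 and 89.2 CPM in LacZ cells. The means were 69.2 ± 0.27 CPM in BRD9 KO and 87.3 ± 2.58 CPM in LacZ cells (SD, n = 2 each), a difference larger than the spread within either group (log2 fold change -0.34, standard error 0.04, edgeR adjusted p = 8.51e-07). It was the smallest p among the 52 genes. An exon of SNRPA overlaps one of C19orf54 on the opposite strand, and the library kit does not mark strand, so reads there cannot be told apart.

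PRPF40B is a human homologue of yeast Prp40, a U1 protein that helps to bridge the ends of an intron. PRPF40B (ENSG00000110844.9, GRCh37 chr12:49962001-50038449, plus strand) had 17.8 and 19.96 CPM in BRD9 KO cells, against 25.7 and 29.5 CPM in LacZ cells. Its level fell by 32.2%, the largest change among the members (log2 fold change -0.56, standard error 0.08, edgeR adjusted p = 2.33e-05, with a range from 9.2e-11 to 0.0219 over 14 alternatives). Its exons overlap those of FAM186B and FMNL3 on the opposite strand. SNRNP70, the most abundant U1 gene (mean of 209 TPM) and the one that encodes U1-70K, had 210 and 206 CPM in BRD9 KO cells and 208 and 218 CPM in LacZ cells, and these groups overlap. SNRPC, whose product, the C protein of U1, helps U1 to read the splice site, and PRPF39 were at 0.05 and 0.02 on the log2 scale and did not pass.

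The U2 proteins, the largest group, held the most calls of any particle. Of the 11 genes, 4 (36.4%) were called higher and 2 (18.2%) lower, against 20.5% and 18.1% of all genes tested. By share of genes called, U7 with its 2 genes was above U2 (100% against 54.5%), and U1 was at 50%. The median log2 fold change of the U2 genes was 0.05. The largest rise was that of SF3B4, which encodes a subunit of the SF3B complex that contacts the RNA just upstream of the branch point (ENSG00000143368.9, GRCh37 chr1:149895209-149899695, minus strand). It had 79.2 and 79.7 CPM in BRD9 KO cells, against 67.1 and 65.7 CPM in LacZ cells. The rise was 19.7% (log2 fold change 0.26, standard error 0.04, edgeR adjusted p = 1.83e-05). SNRPB2 encodes U2B″, the U2 relative of the U1 A protein, and had 68.4 and 67.1 CPM in BRD9 KO cells, against 57.4 and 57.4 CPM in LacZ cells (log2 fold change 0.24, standard error 0.04, edgeR adjusted p = 0.000105). The U1 A protein and U2B″ are close homologues, and their transcripts moved in opposite directions. The ratio of SNRPB2 to SNRPA in estimated counts, which needs no scaling between libraries, was 0.991 and 0.968 in BRD9 KO cells and 0.671 and 0.644 in LacZ cells. SNRPA1, the partner of U2B″, had a log2 fold change of 0.06 and did not pass (edgeR adjusted p = 0.309).

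The 3 subunits of SF3A, which joins SF3B to form the mature U2 particle, did not move together. SF3A3 had 159 and 156 CPM in BRD9 KO cells, against 135 and 136 CPM in LacZ cells (log2 fold change 0.22, standard error 0.03, edgeR adjusted p = 4.68e-06). SF3A1 had 209 and 212 CPM in BRD9 KO cells, against 193 and 190 CPM in LacZ cells (log2 fold change 0.14, edgeR adjusted p = 0.000176). On the log2(TPM + 1) scale SF3A1 came to 0.03 only, with a limma adjusted p of 0.627, and the length that enters TPM differed between the groups for this gene, as given further on. SF3A2 was lower, with 48.4 and 51.99 CPM in BRD9 KO cells, against 54.7 and 56.1 CPM in LacZ cells (log2 fold change -0.15, edgeR adjusted p = 0.0245). The SF3A2 call was lost without BRD9 KO replicate 1 (adjusted p = 0.287), LacZ replicate 1 (0.0736) or LacZ replicate 2 (0.173), with DESeq2 (0.234) and with limma on log2(TPM + 1), where it was at -0.03 (0.828). The ratio of SF3A3 to SF3A2 in estimated counts was 3.29 and 2.996 in BRD9 KO cells and 2.47 and 2.42 in LacZ cells. SF3A1 overlaps exons of CCDC157, and SF3A2 those of PLEKHJ1, both on the opposite strand.

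Within SF3B, the scaffold subunits stayed close to the control level in CPM. SF3B1, the large HEAT-repeat subunit that is mutated in myelodysplastic syndromes, had 487 and 484 CPM in BRD9 KO cells and 486 and 494 CPM in LacZ cells. The log2 fold change came to -0.01 (standard error 0.02), and the groups overlap in CPM. SF3B2 and SF3B3 were at -0.03 and 0.05 and SF3B5 at -0.06 on the log2 scale, and none passed. The CPM groups still did not overlap for SF3B3 (247.1 and 244.3 in BRD9 KO cells, 240.7 and 234.5 in LacZ cells). Nor did they for SF3B2 (226.9 and 223.7 CPM in BRD9 KO cells, 228.5 and 232.4 CPM in LacZ cells). Such separation holds for 68.6% of all genes tested. In TPM the groups did not overlap for SF3B1, with 255 and 251 in BRD9 KO cells and 265 and 282 in LacZ cells. The TPM groups were also apart for SF3B3, with 156 and 152 TPM in BRD9 KO cells and 143 and 133 TPM in LacZ cells. The TPM values of SF3B2 and SF3B5 did overlap. The length that enters TPM differed between the groups for SF3B1 and SF3B3, as given further on. SF3B14, now named SF3B6, touches the branch point adenosine and had 53.5 and 54.5 CPM in BRD9 KO cells, against 57.8 and 60.9 CPM in LacZ cells (log2 fold change -0.14, edgeR adjusted p = 0.0231). That call ended without BRD9 KO replicate 1 (adjusted p = 0.116) or LacZ replicate 2 (0.225) and with DESeq2 (0.234).

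**Figure D3:**
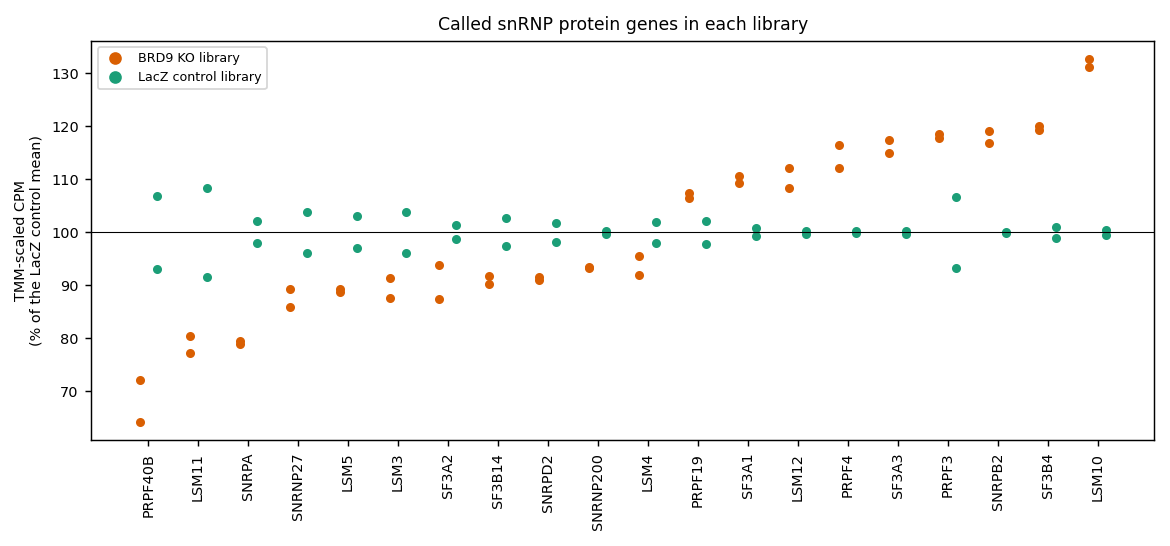
TMM-scaled CPM of 20 of the 21 called snRNP protein genes in each library, as a percentage of the mean of the LacZ control libraries, with 1 point per library (BRD9 KO left of LacZ control for each gene) and genes ordered by the change. The groups do not overlap for any of the 20 genes shown, which were chosen by the test on these same values.

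The U5 proteins surround the catalytic RNA of the spliceosome. Of the 4 genes, 1 (25%) was called lower and none higher, against 18.1% lower and 20.5% higher among all genes tested. The median log2 fold change of the 4 genes was -0.05. SNRNP200 encodes the helicase Brr2, which unwinds U4 from U6, and had 467 and 465 CPM in BRD9 KO cells, against 497 and 501 CPM in LacZ cells. The difference was 6.64%, small but larger than the spread within either group (log2 fold change -0.10, standard error 0.02, edgeR adjusted p = 4.1e-05). An exon of SNRNP200 overlaps one of AC021188.4 on the same strand. PRPF8, the largest U5 protein and the one that cradles the active site, had 580 and 582 CPM in BRD9 KO cells and 592 and 581 CPM in LacZ cells, and these groups overlap (log2 fold change -0.01, edgeR adjusted p = 0.526). On the log2(TPM + 1) scale PRPF8 was at -0.16 and was called by limma (adjusted p = 0.0302). PRPF6, which bridges U5 to U4/U6, was at -0.08 (edgeR adjusted p = 0.0699) and SNRNP40 at 0.05.

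In the U4/U6 and tri-snRNP group 2 of 7 genes (28.6%) were called higher and 1 (14.3%) lower, against 20.5% and 18.1% of all genes tested. The median log2 fold change of the 7 genes was 0.06. PRPF3 and PRPF4 bind each other and the U4/U6 duplex. PRPF4 had 64.9 and 62.6 CPM in BRD9 KO cells, against 55.9 and 55.7 CPM in LacZ cells (log2 fold change 0.20, standard error 0.04, edgeR adjusted p = 0.00114). PRPF3 had 46.8 and 46.5 CPM in BRD9 KO cells, against 36.8 and 42.1 CPM in LacZ cells (log2 fold change 0.24, standard error 0.06, edgeR adjusted p = 0.00348). Both genes were higher in both BRD9 KO libraries, but the LacZ libraries of PRPF3 lay apart, and without LacZ replicate 1 its log2 fold change was 0.15 with an adjusted p of 0.0868. PRPF31, which binds U4 and with PRPF3 and PRPF8 is a known retinitis pigmentosa gene, had 67.0 and 69.6 CPM in BRD9 KO cells and 65.9 and 64.0 CPM in LacZ cells (log2 fold change 0.07, edgeR adjusted p = 0.18). SNRNP27 had 23.7 and 22.8 CPM in BRD9 KO cells, against 25.5 and 27.5 CPM in LacZ cells (log2 fold change -0.19, edgeR adjusted p = 0.045). Leaving out any 1 of the 4 libraries ended the SNRNP27 call, with adjusted p values of 0.0798 without BRD9 KO replicate 1, 0.203 without BRD9 KO replicate 2, 0.0504 without LacZ replicate 1 and 0.306 without LacZ replicate 2. An exon of SNRNP27 overlaps one of MXD1 on the same strand. PRPF4B, a kinase, and PRPF38A and PRPF38B were between 0.01 and 0.06 on the log2 scale and did not pass.

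None of the 3 proteins of the minor U11/U12 particle passed, with edgeR adjusted p values of 0.138 for SNRNP35 and above for the others. Among all genes tested 20.5% were called higher and 18.1% lower, so that no call among 3 genes says little about this particle. SNRNP35, the counterpart of U1-70K in this particle, had 10.2 and 10.0 CPM in BRD9 KO cells and 11.7 and 11.6 CPM in LacZ cells, which is -0.21 on the log2 scale (standard error 0.11). SNRNP25, the most abundant of the 3, had 20.5 and 20.9 CPM in BRD9 KO cells and 19.3 and 20.7 CPM in LacZ cells. SNRNP48 was at 0.03, and the standard errors of 0.07 to 0.11 exceed the whole change of several genes called in other particles, so that changes of that size were not detectable at this depth.

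The Lsm proteins form a ring on the end of U6 when LSM8 is in it and a cytoplasmic ring that promotes decapping of mRNA when LSM1 takes its place. Of the 7 genes matched here, 3 (42.9%) were called lower and none higher, against 18.1% lower and 20.5% higher among all genes tested. The median log2 fold change of the 7 genes was -0.06. LSM5 had 42.0 and 42.2 CPM in BRD9 KO cells, against 45.8 and 48.7 CPM in LacZ cells (log2 fold change -0.17, edgeR adjusted p = 0.0148). LSM3 had 37.6 and 39.2 CPM in BRD9 KO cells, against 44.5 and 41.2 CPM in LacZ cells (log2 fold change -0.16, edgeR adjusted p = 0.0326). LSM4 had 98.5 and 94.7 CPM in BRD9 KO cells, against 101 and 105 CPM in LacZ cells (log2 fold change -0.09, edgeR adjusted p = 0.0486). Each of these calls depended on single libraries and was lost with DESeq2, at adjusted p values of 0.173 for LSM5, 0.244 for LSM3 and 0.345 for LSM4. The LSM5 call ended with BRD9 KO replicate 1 (0.0642) or LacZ replicate 2 (0.178) left out, and the LSM3 call with BRD9 KO replicate 1 (0.199) or LacZ replicate 1 (0.281) left out. LSM4, kept in 4 of 14 alternatives, also ended with limma-voom (0.0521) and RLE factors (0.0519), and did not pass without BRD9 KO replicate 2 (0.303), LacZ replicate 1 (0.0661) or LacZ replicate 2 (0.363).

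LSM7, the most abundant gene of the ring, had 65.1 and 63.6 CPM in BRD9 KO cells and 64.6 and 61.4 CPM in LacZ cells, and the groups overlap. LSM1, LSM2 and LSM6 had log2 fold changes between -0.06 and 0.12 and did not pass. LSM8 itself stands in the tables under the older symbol NAA38 (ENSG00000128534.3), so that the choice by symbol did not take it. It had 28.4 and 29.3 CPM in BRD9 KO cells, against 32.4 and 32.5 CPM in LacZ cells (log2 fold change -0.17, edgeR adjusted p = 0.037). The LSM8 call was not followed through the alternatives.

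The 2 U7 proteins moved in opposite directions. LSM10 and LSM11 take the places of SmD1 and SmD2 in the ring of U7, which cuts the ends of histone transcripts that carry no poly(A) tail. LSM10 (ENSG00000181817.5, GRCh37 chr1:36856839-36863509, minus strand) had 30.1 and 30.4 CPM in BRD9 KO cells, against 22.8 and 23.0 CPM in LacZ cells. It rose by 31.8% (log2 fold change 0.40, standard error 0.07, edgeR adjusted p = 9.5e-05), the largest rise among the 52 genes. LSM11 (ENSG00000155858.5, GRCh37 chr5:157170720-157187717, plus strand) had 7.39 and 7.10 CPM in BRD9 KO cells, against 8.43 and 9.96 CPM in LacZ cells (log2 fold change -0.35, standard error 0.13, edgeR adjusted p = 0.0449). The LSM11 values rest on 116 to 166 counts per library. Its call was lost without BRD9 KO replicate 1 (adjusted p = 0.0888), BRD9 KO replicate 2 (0.144) or LacZ replicate 2 (0.366), with DESeq2 (0.262) and with limma on log2(TPM + 1), where it was at -0.22 (0.373), whereas that of LSM10 was kept in each of these. The ratio of LSM10 to LSM11 in estimated counts was 4.07 and 4.28 in BRD9 KO cells and 2.71 and 2.31 in LacZ cells, and being undivided by length it compares the groups and not the numbers of transcripts. The ratios of the groups do not overlap, which follows from LSM10 being above and LSM11 below in both BRD9 KO libraries. The ratios of SNRPB2 to SNRPA and of SF3A3 to SF3A2 above were likewise fixed by the CPM values of their genes. The ratio of PRPF3 to PRPF4, which both rose, did overlap (0.720 and 0.743 in BRD9 KO cells, 0.659 and 0.757 in LacZ cells). No test was run on the ratios, since 2 libraries against 2 cannot go below p = 0.33 in a two-sided exact permutation test.

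Of the remaining members LSM12, an Lsm protein outside the splicing rings, had 95.6 and 92.4 CPM in BRD9 KO cells, against 84.98 and 85.5 CPM in LacZ cells (log2 fold change 0.14, standard error 0.04, edgeR adjusted p = 0.00378). LSM14A, a component of P-bodies, and its paralogue LSM14B were at -0.03 and 0.10 on the log2 scale and did not pass. PRPF19, the ubiquitin ligase that heads the Prp19 complex, had 123 and 122 CPM in BRD9 KO cells, against 112 and 117 CPM in LacZ cells (log2 fold change 0.10, edgeR adjusted p = 0.0242). That call was lost without BRD9 KO replicate 1 (adjusted p = 0.0863), BRD9 KO replicate 2 (0.0513) or LacZ replicate 1 (0.197) and with DESeq2 (0.105). PRPF18, a factor of the second step of splicing, was at -0.02. In bulk RNA a lower level per cell and fewer cells with the transcript cannot be told apart, for any of these genes.

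The mean transcript length that RSEM gives for a gene, weighted by the estimated share of each annotated isoform, is a readout that does not enter the counts. It varied by more than 1% between libraries for 44 of the 52 genes. Among these, 14 genes were longer and 7 shorter in both BRD9 KO libraries than in both LacZ libraries, against 20.2% longer and 17.5% shorter of 12001 tested genes whose length varied. In 8 members the groups did not overlap and the means differed by at least 5%, where 22.2% of those 12001 genes did so. Whether or not the groups overlapped, the means of 10 members differed by at least 5%, as did those of 37.9% of the 12001 genes. PRPF8 had a mean length of 4922 and 4784 bases in BRD9 KO cells, against 4478 and 4271 bases in LacZ cells, with means of 4853 bases in BRD9 KO and 4374 bases in LacZ cells. The CPM values of PRPF8 overlap between the groups and its TPM values do not, at 199 and 205 TPM in BRD9 KO cells and 222 and 228 TPM in LacZ cells. SF3B1 had 3240 and 3280 bases in BRD9 KO cells, against 3104 and 2952 bases in LacZ cells, a difference of 7.66%. SF3A1 was 7.95% longer, SNRPD1 5.20% and SNRNP25 12.8% longer in BRD9 KO cells, while PRPF38A, SF3B3 and SF3A2 were shorter, by -9.26%, -6.88% and -6.52% of the LacZ mean. These lengths are estimates of isoform shares from short reads, were not tested for the reason given above, and do not show which exon or end differed.

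**Figure D4:**
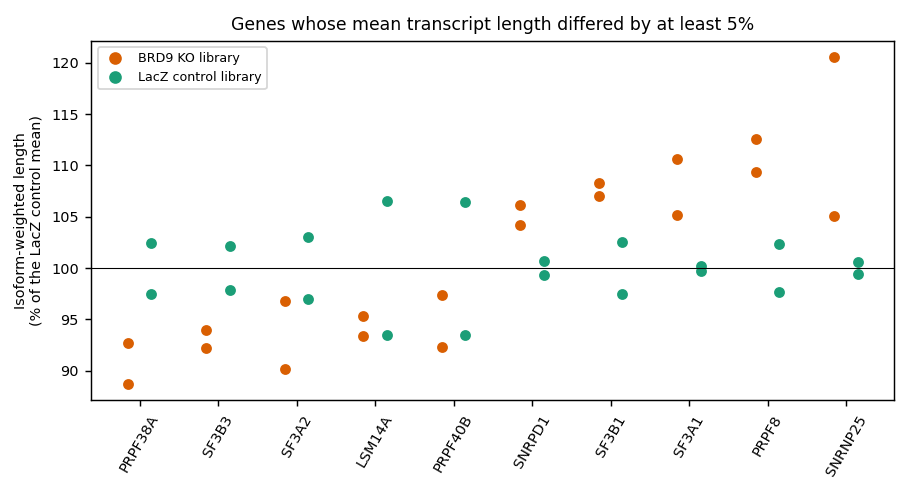
Isoform-weighted mean transcript length per library, as a percentage of the LacZ control mean, for the 10 snRNP protein genes whose group means differed by at least 5%, with 1 point per library (BRD9 KO left of LacZ control for each gene). The groups overlap for LSM14A and PRPF40B and not for the other 8 genes.

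Other splicing genes were set beside the members as lists of their partners, whose counts are a description. Among 20 genes for the assembly of snRNPs, 9 were called higher and none lower, with a median log2 fold change of 0.12, where 20.5% of all genes tested were called higher and 18.1% lower. The number called higher was 6 without LacZ replicate 2, 4 with limma on log2(TPM + 1) and 1 against 1.2-fold. WDR77, the partner of the methyltransferase PRMT5 that modifies Sm proteins, had 81.6 and 82.2 CPM in BRD9 KO cells, against 59.7 and 63.0 CPM in LacZ cells (log2 fold change 0.41, standard error 0.04, edgeR adjusted p = 8e-08). GEMIN5, which recognises the snRNA for the SMN complex, had 72.8 and 70.2 CPM in BRD9 KO cells, against 54.1 and 60.2 CPM in LacZ cells (log2 fold change 0.32, edgeR adjusted p = 2.07e-05), a call that ended with limma on log2(TPM + 1) (adjusted p = 0.0578). PRMT5, CLNS1A, TGS1, SNUPN, COIL and SART3 rose by 0.15 to 0.29 on the log2 scale, and so did SMN1 by 0.28, although reads of SMN1 are shared with the near-identical SMN2 and its value is uncertain. TGS1, SNUPN, COIL and SART3 act on the cap, the import and the later maturation or recycling of snRNPs and not on the Sm ring.

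Among 18 further U2, U5 and tri-snRNP proteins 8 were called higher and 1 lower, with a median of 0.08, against 20.5% higher and 18.1% lower among all genes tested. The 8 were 5 without LacZ replicate 2, 3 with limma on log2(TPM + 1) and 0 against 1.2-fold. NHP2L1, now SNU13, which binds U4 before PRPF31 does, had 78.0 and 73.1 CPM in BRD9 KO cells, against 64.0 and 59.8 CPM in LacZ cells (log2 fold change 0.29, edgeR adjusted p = 2.74e-05). On the log2(TPM + 1) scale NHP2L1 was at 0.10 and did not pass with limma (adjusted p = 0.166). U2AF2, which reads the polypyrimidine tract, had 178 and 178 CPM in BRD9 KO cells, against 161 and 157 CPM in LacZ cells (log2 fold change 0.16, edgeR adjusted p = 8.49e-05). It too did not pass with limma on TPM, at 0.06 (adjusted p = 0.339). PPIH, a cyclophilin bound to PRPF3 and PRPF4, had 18.5 and 19.8 CPM in BRD9 KO cells, against 24.3 and 22.7 CPM in LacZ cells (log2 fold change -0.30, edgeR adjusted p = 0.0054). The PPIH call ended without BRD9 KO replicate 1 (adjusted p = 0.0674) or LacZ replicate 1 (0.0778), with DESeq2 (0.0769) and with limma on TPM (0.0553).

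In the Prp19 complex 4 of 15 genes (26.7%) were called higher and 1 (6.67%) lower, against 20.5% and 18.1% of all genes tested. With limma on log2(TPM + 1) 2 were called higher and none lower. CTNNBL1, with the smallest p, had 133 and 138 CPM in BRD9 KO cells, against 111 and 118 CPM in LacZ cells (log2 fold change 0.24, edgeR adjusted p = 1.07e-05), a call that ended with limma on TPM (adjusted p = 0.0551). SYF2 had 65.0 and 66.0 CPM in BRD9 KO cells, against 57.2 and 55.7 CPM in LacZ cells (log2 fold change 0.22, edgeR adjusted p = 0.000397). XAB2 was lower, with 56.4 and 54.4 CPM in BRD9 KO cells, against 62.0 and 61.0 CPM in LacZ cells (log2 fold change -0.15, edgeR adjusted p = 0.0127). The XAB2 call was lost without BRD9 KO replicate 2 (adjusted p = 0.0893), LacZ replicate 1 (0.0888) or LacZ replicate 2 (0.0553), with DESeq2 (0.168) and with limma on TPM (0.185).

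Among 7 other proteins of the minor spliceosome none was called higher and 2 (28.6%) were called lower, against 20.5% and 18.1% of all genes tested. Neither of these 2 genes passed with DESeq2 or with limma on log2(TPM + 1). CCDC84, now CENATAC, had 58.5 and 56.5 CPM in BRD9 KO cells, against 65.9 and 64.7 CPM in LacZ cells (log2 fold change -0.18, edgeR adjusted p = 0.00187, DESeq2 adjusted p = 0.059, limma on TPM 0.0593). RNPC3, the RNA-binding protein that joins U11 and U12, had 31.5 and 33.0 CPM in BRD9 KO cells, against 38.3 and 35.5 CPM in LacZ cells (log2 fold change -0.19, edgeR adjusted p = 0.0181). The RNPC3 call ended without BRD9 KO replicate 1 (adjusted p = 0.139) or LacZ replicate 1 (0.188), with DESeq2 (0.168) and with limma on TPM, where the value was -0.30 (0.111).

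The partners of the cytoplasmic Lsm ring and of U7 held calls in both directions. Of the 8 decapping partners 1 (12.5%) was called higher and 2 (25%) lower with edgeR, against 20.5% and 18.1% of all genes tested. None of the 8 was called with limma on log2(TPM + 1), which called 2444 of the 15288 genes tested. XRN1, the nuclease that degrades decapped mRNA, had 39.2 and 34.9 CPM in BRD9 KO cells, against 52.4 and 52.4 CPM in LacZ cells (log2 fold change -0.49, standard error 0.06, edgeR adjusted p = 9.28e-07). With limma on TPM it was at -0.30 (adjusted p = 0.263). DCP2, the decapping enzyme, had 92.3 and 100 CPM in BRD9 KO cells, against 118 and 124 CPM in LacZ cells (log2 fold change -0.33, edgeR adjusted p = 2.01e-06, limma on TPM 0.0619). PATL1, which tethers the Lsm ring to the decapping machinery, had 133 and 131 CPM in BRD9 KO cells, against 116 and 113 CPM in LacZ cells (log2 fold change 0.21, edgeR adjusted p = 2.1e-05, limma on TPM 0.0744).

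Of the 6 partners of U7, 1 (16.7%) was called higher and 1 (16.7%) lower, against 20.5% and 18.1% of all genes tested. SLBP, which binds the stem-loop of histone transcripts beside U7, had 82.8 and 88.3 CPM in BRD9 KO cells, against 65.2 and 60.4 CPM in LacZ cells (log2 fold change 0.45, standard error 0.04, edgeR adjusted p = 1.19e-07). CPSF3, the nuclease that makes the cut, had 73.4 and 71.8 CPM in BRD9 KO cells, against 84.2 and 81.7 CPM in LacZ cells (log2 fold change -0.19, edgeR adjusted p = 0.00056).

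**Figure D5:**
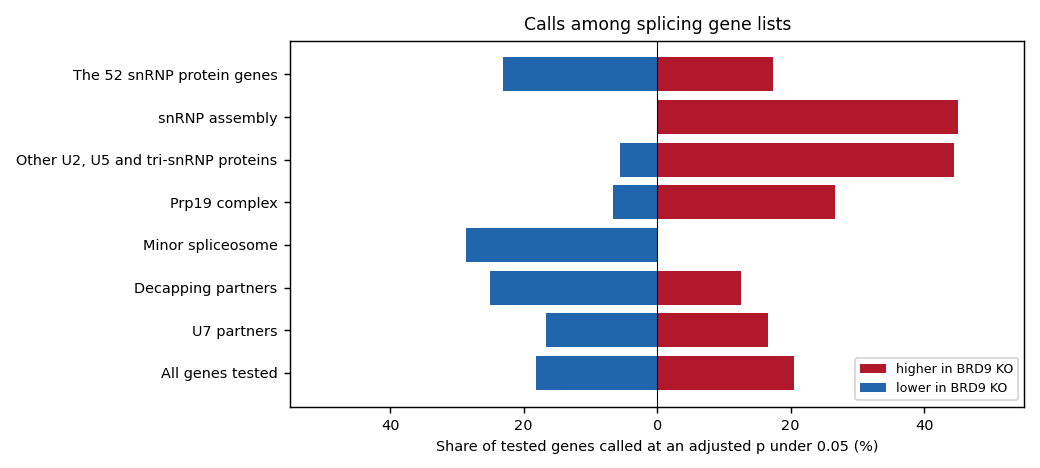
Share of tested genes called at an edgeR adjusted p under 0.05, higher in BRD9 KO to the right and lower in BRD9 KO to the left, for the 52 snRNP protein genes, for 6 lists of partner genes and for all 15288 genes tested. The snRNP genes stand at 17.3% higher and 23.1% lower, all tested genes at 20.5% and 18.1%, and the assembly genes at 45.0% and 0%.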

How the data were processed

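All 4 RNA-seq libraries were used. Per the labels, total RNA went into a NEBNext Ultra kit, whose version in the methods of the study does not mark strand. Per the methods and processing notes, the authors used STAR (hg19) for alignment and RSEM for quantification, and no version is stated. The authors deposited for each gene an expected count (estimated count, unscaled, with reads that match several genes split between them), a TPM value, a posterior standard deviation and an isoform-weighted length. Mitochondrial genes took 8.15% to 8.48% of counts.

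Expected counts were rounded and tested with edgeR 4.0.16 in R 4.3.3 (filterByExpr, TMM, robust quasi-likelihood, two-sided, Benjamini-Hochberg over all 15288 genes kept), with a call at an adjusted p under 0.05. Fold changes are BRD9 KO over LacZ control, and standard errors follow from the F statistic. The 2 replicates of a group differed by more than sampling noise (chi-square per degree of freedom of 1.57 for BRD9 KO and 1.60 for LacZ) and were kept apart. Gene coordinates are from GENCODE v44 lifted to GRCh37. The edgeR test was tried on simulated data, and the other tests were not.

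Full values were given for, in each particle, the called gene of smallest p per direction and the most abundant gene, for the 6 largest rises and falls, and for up to 2 called genes per direction in each partner list. Genes named beyond these were chosen after their values were seen. The members, lists and tests were chosen with earlier results of these data known. Alternatives were DESeq2 1.42.0, limma 3.58.1 (voom, and log2(TPM + 1) with a pseudocount of 1), RLE factors, library totals, no filter, at least 1 CPM in all 4 libraries, a replicate block, each library left out, an adjusted p under 0.01 and a test against 1.2-fold. Where 1 library was left out, its remaining partner was taken to vary as the libraries of the opposite group do. The values of 1 member, which is in all counts, are not reported here.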

Additional observations from a re-analysis of the deposited data

How the results depend on the processing

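Of 938 values of single genes set against 14 alternatives, 810 kept their side of the threshold, 120 lost the call and 8 gained it. Of the 810, 28 values that were called in neither fit changed sign, and no called value did. The number of genes changed, 5901, was 3585 with DESeq2, 2444 with limma on log2(TPM + 1) and 1333 against a fold change of 1.2. Those higher, 3127, were 1341 with limma on TPM and 644 against 1.2-fold, and those lower, 2774, were 1439, 1103 and 689 with DESeq2, limma on TPM and the 1.2-fold test, and between 1838 (without LacZ replicate 2) and 2268 with 1 library left out. The snRNP genes called higher numbered 9, and 3 with limma on TPM and 0 against 1.2-fold. Those called lower numbered 12, and 3 with DESeq2, 5 with limma on TPM, 5 at an adjusted p under 0.01, 1 against 1.2-fold and between 5 and 9 with 1 library left out. Their median log2 fold change of -0.009 was 0.005 with DESeq2, 0.009 with limma on TPM, -0.007 with RLE factors, -0.015 with library totals, 0.007 without a filter, -0.017 with the stricter filter and between -0.008 and 0.002 with 1 library left out, all close to 0. The cause of these differences was not tested.

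The replicate numbers were not treated as a pairing, since same-numbered libraries did not deviate together (r = -0.05 across genes, which are not independent replicates). With the replicate block 9 snRNP genes were called higher and 13 lower, the added one being SNRPG (edgeR adjusted p = 0.0157).

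The calls kept in the fewest of the 14 alternatives were those of LSM4 (4), SNRNP27 (5) and LSM11 (6). Reads of exons shared with an opposite-strand gene cannot be assigned by strand, which applies to 14 of the 52 genes when same-strand overlaps are included.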
